A study of Mus musculus with 50 samples.

Results

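Kidney chromatin was profiled by ATAC-seq, in which the Tn5 transposase inserts adapters into accessible DNA, in 3 libraries from young and 3 from old mice. The regions described here were those with a peak in all 3 young kidney libraries and in no old kidney library. They were chosen by merging the peaks of the 6 libraries wherever peaks shared at least 1 bp, which gave 255698 regions, and by keeping the 3896 regions (1.52%) with that pattern. The opposite pattern, a peak in all 3 old and in no young library, was held by 826 regions, and 45429 regions had a peak in all 6 libraries. The ratio of the young-only to the old-only count, 4.72, depended on the peaks used: it was 1.96 (2514 against 1280) with an equal number of top peaks from each library, 2.07 without old replicate 2, 2.58 without old replicate 1 and 8.28 (2806 against 339) when peaks under a −log10 q of 5 were dropped. The peak calls themselves chose the members, so the loss of peaks in old kidney and the height of the young peaks are descriptions and were not tested.

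All mice were of the C57BL/6 strain and untreated unless stated, and the study's methods give them as female. Young mice were 2.5 months old and old mice were 23 to 25 months old. Liver ATAC-seq (3 libraries per age) and kidney and liver RNA-seq (4 libraries per age) came from the same age groups, and a further 4 kidney RNA libraries each came from mice of 20 to 21 months given DMSO or an agent that the labels call 3C. Nuclei and RNA were taken from whole frozen tissue. In such bulk samples, fewer cells of a type and less open chromatin or less RNA per cell cannot be told apart.

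Peak numbers per kidney library ran from 115836 to 128395 in the young and from 93072 to 108970 in the old group, and old replicate 2 had the fewest. RNA libraries held 14.2 to 43.7 M counted reads. The tissue label was borne out by 23 of 24 proximal tubule markers that passed the count filter, whose summed level was 34590 to 44710 CPM (read counts scaled to a common library size) in young and 23170 to 36940 CPM in old kidney. Among 16 hepatocyte markers, 11 passed the filter, with a summed level of 255.4 to 333.1 CPM in young kidney and 380 to 495.5 CPM in old replicates 1, 3 and 4, but 4692 CPM in old replicate 2. All 16 macrophage markers were higher in old kidney by the call rule used below, with a summed level of 174 to 215.8 CPM in young and 836.5 to 1781 CPM in old libraries.

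An accessible region is a stretch of DNA free enough of nucleosomes for proteins to bind. Promoters lie at transcription starts and are often open in many cell types, whereas enhancers lie within introns or between genes, are more particular to a cell type, and are held open by the transcription factors of that cell. In the kidney the nuclear receptor HNF4A, the estrogen-related receptors and PAX2 are factors of the nephron epithelium, while PU.1 is a factor of myeloid and B cells and AP-1 responds to stress and cytokines. CTCF binds insulators and the anchors of chromatin loops.

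The sequences below, centred on the summit of the highest young peak with 100 bases on either side, show the strongest regions, the regions at the promoters of the 2 genes with the smallest p among those whose RNA fell by more than 2-fold, regions near genes whose RNA fell, and the strongest region with each of 2 motifs. All are on the plus strand of GRCm38 (mm10). Capitals mark matches, on either strand, to the motifs of HNF4, CTCF, AP-1, PU.1, ERR, FOX or NFI or to AGGTCA, the core motif of nuclear receptors; a window without capitals held none of them.
Strongest region, nearest Gabrg1, chr5:70371931-70372131: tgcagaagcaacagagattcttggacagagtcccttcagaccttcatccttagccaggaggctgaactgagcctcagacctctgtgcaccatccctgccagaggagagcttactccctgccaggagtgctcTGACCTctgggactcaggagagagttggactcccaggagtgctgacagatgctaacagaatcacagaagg
Second strongest, in an intron of Cyp2b10, chr7:25919547-25919747: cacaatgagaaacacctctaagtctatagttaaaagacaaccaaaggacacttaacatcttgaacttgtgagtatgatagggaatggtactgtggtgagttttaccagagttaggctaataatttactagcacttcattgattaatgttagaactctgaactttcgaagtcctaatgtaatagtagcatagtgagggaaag
Upstream start of Akr1c14, chr13:4048765-4048965: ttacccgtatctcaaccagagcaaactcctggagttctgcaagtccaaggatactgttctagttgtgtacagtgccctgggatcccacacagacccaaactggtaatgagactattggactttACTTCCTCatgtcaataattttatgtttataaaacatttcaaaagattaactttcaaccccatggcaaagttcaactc
Internal start of Akr1c14, chr13:4059644-4059844: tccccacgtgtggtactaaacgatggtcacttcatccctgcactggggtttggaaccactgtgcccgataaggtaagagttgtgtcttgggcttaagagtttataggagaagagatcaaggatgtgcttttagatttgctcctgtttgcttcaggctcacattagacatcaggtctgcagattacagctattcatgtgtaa
Promoter of Ect2, chr3:27118337-27118537: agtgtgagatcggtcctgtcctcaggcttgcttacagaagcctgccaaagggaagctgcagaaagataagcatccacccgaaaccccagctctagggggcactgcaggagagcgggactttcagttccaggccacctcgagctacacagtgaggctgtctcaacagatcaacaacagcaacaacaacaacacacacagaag
Nearest Pdk4, chr6:5482498-5482698: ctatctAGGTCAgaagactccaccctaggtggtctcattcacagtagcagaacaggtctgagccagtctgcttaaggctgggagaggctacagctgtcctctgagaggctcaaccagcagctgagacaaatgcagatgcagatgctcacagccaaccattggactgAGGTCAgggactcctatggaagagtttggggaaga
Intron of Pdzd2, chr15:12480320-12480520: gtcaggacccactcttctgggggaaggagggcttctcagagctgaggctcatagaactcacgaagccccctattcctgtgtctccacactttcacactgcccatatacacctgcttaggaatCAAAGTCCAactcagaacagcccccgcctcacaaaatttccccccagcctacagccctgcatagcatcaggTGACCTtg
Highest with an HNF4 motif, in an intron of Tnik, chr3:28642993-28643193: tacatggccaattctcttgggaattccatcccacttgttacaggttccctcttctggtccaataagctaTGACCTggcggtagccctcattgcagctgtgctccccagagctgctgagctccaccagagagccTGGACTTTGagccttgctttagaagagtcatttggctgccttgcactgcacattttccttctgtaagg
Highest with a CTCF motif, between genes and nearest Adpgk, chr9:59269851-59270051: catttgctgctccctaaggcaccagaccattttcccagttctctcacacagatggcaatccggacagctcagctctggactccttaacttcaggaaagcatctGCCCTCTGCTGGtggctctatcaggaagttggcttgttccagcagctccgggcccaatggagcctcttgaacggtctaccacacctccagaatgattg

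Peak height was taken as fold enrichment, the ratio of signal at the summit to the local background that the peak caller MACS2 writes for each peak. The 3896 members were mostly weak peaks. Their mean fold enrichment over the 3 young libraries ran from 1.74 to 8.88 with a median of 3.22, and the 10th and 90th percentiles were 2.49 and 4.39. Only 152 members exceeded 5. In the single libraries the median was 3.33 in young replicate 1, 3.17 in replicate 2 and 3 in replicate 3, against 5.84, 5.59 and 4.87 for the regions open in all 6 libraries. The median coefficient of variation of a member over the 3 libraries was 17.5%, and replicate 1 had the highest value in 1788 members, replicate 2 in 1269 and replicate 3 in 839. In 1672 members (42.9%) the peak of at least 1 young library had a −log10 q under 2, and 467 members had a −log10 q of at least 5 in every young library.

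**Figure D1:**
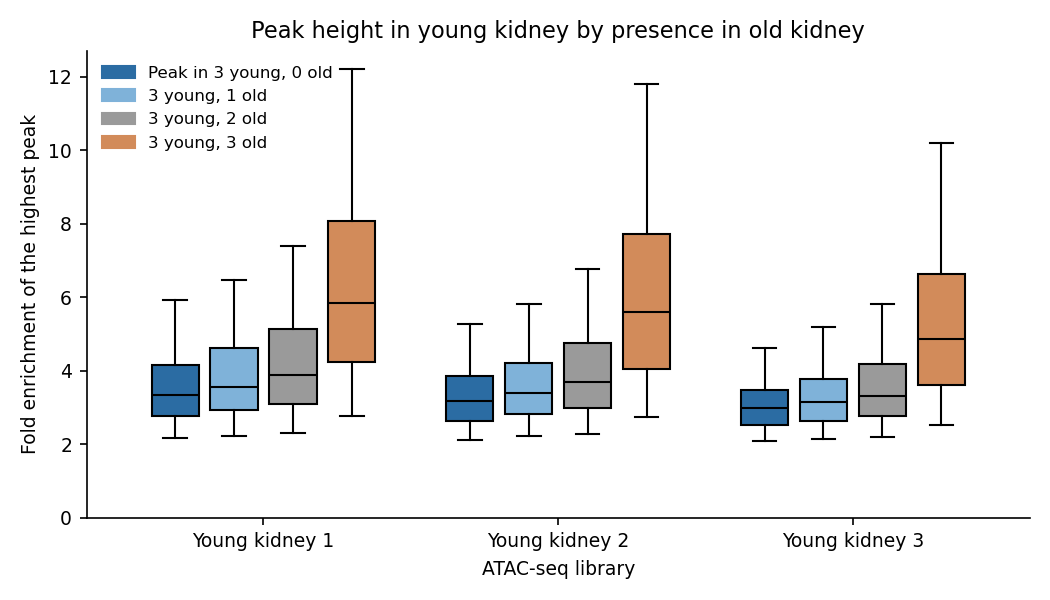
Fold enrichment (y axis) of the highest peak in each young kidney ATAC-seq library (x axis) for regions grouped by the number of old libraries with a peak. Boxes show the quartiles and median and whiskers the 5th and 95th percentiles over regions; the regions without an old peak sit lowest in all 3 libraries, with medians of 3.33, 3.17 and 3.

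Regions just outside the rule looked much like the members. The 6584 regions with 3 young peaks and 1 old peak had a median mean young fold enrichment of 3.44, and their single old peak had a median fold enrichment of 2.93. That old peak had a −log10 q under 2 in 1506 of them (22.9%) and fell in old replicate 1 in 2072 regions, in replicate 2 in 2108 and in replicate 3 in 2404. The 11144 regions with 2 young and no old peaks had a median of 2.79 over the libraries with a peak. Of all regions with a peak in every young library, 5.89% had none in old kidney, and of those with a peak in every old library 1.59% had none in young kidney. The median distance from a member to the closest old kidney peak was 3.7 kb, 888 members (22.8%) lay within 1 kb of one, and 916 (23.5%) had none within 10 kb.

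The strongest member, chr5:70371852-70372212, lay between genes 470 kb from the nearest annotated start, that of Gabrg1, which encodes a subunit of the GABA-A receptor. Its fold enrichment was 7.77, 9.46 and 9.41 in young replicates 1, 2 and 3, it had no liver peak in any library, and 63.7% of its window was marked as repeat in the reference. The next, chr7:25919463-25919897, lay in an intron of Cyp2b10, a cytochrome P450 known for its induction by phenobarbital. It reached 11.8, 9.15 and 4.73, and a liver peak overlapped it in all 3 young and in 1 old liver library. A region between genes 20.2 kb from the start of Pitpnb, chr5:111310150-111310566, spread the most among the 8 strongest members, with values of 12.4, 7.74 and 3.47. The strongest members were thus not equally high in the 3 young libraries.

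Of the other strong members, chr9:30003664-30003967 near Ntm, a neural adhesion molecule, had 7.58, 8.8 and 6.94 and was the only one of the 8 with a peak in all 6 liver libraries. The region chr2:143806445-143807133 in an intron of Pcsk2, a prohormone convertase, had 6.84, 8.8 and 5.83. The remaining 3 lay between genes, nearest Bnc2, Eya4 and Ptpru, with means of 6.85, 6.77 and 6.76 and no liver peak. None of the 8 lay at a promoter, and 6 of the 8 lay between genes.

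A region was called promoter when a transcription start lay within 1 kb of it, and otherwise exon, intron or intergenic by its summit. Promoters made up a smaller share of members than of the regions open throughout: 369 members (9.47%) were promoter regions, against 12.6% of all merged kidney regions, 33.8% of those open in all 6 libraries and 15.3% of the old-only regions. Introns held 1847 members (47.4%), the space between genes 1523 (39.1%) and exons 157 (4.03%). Outside promoters, 85 members had the summit in an untranslated region and 48 in coding sequence. The regions just outside the rule were placed alike, with 10.5% promoters among those with 1 old peak and 9.13% among those with 2 young peaks and no old peak. Members were 203 to 1299 bp wide with a median of 405 bp, against 816 bp for regions open in all 6 libraries and 316 bp for all regions.

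**Figure D2:**
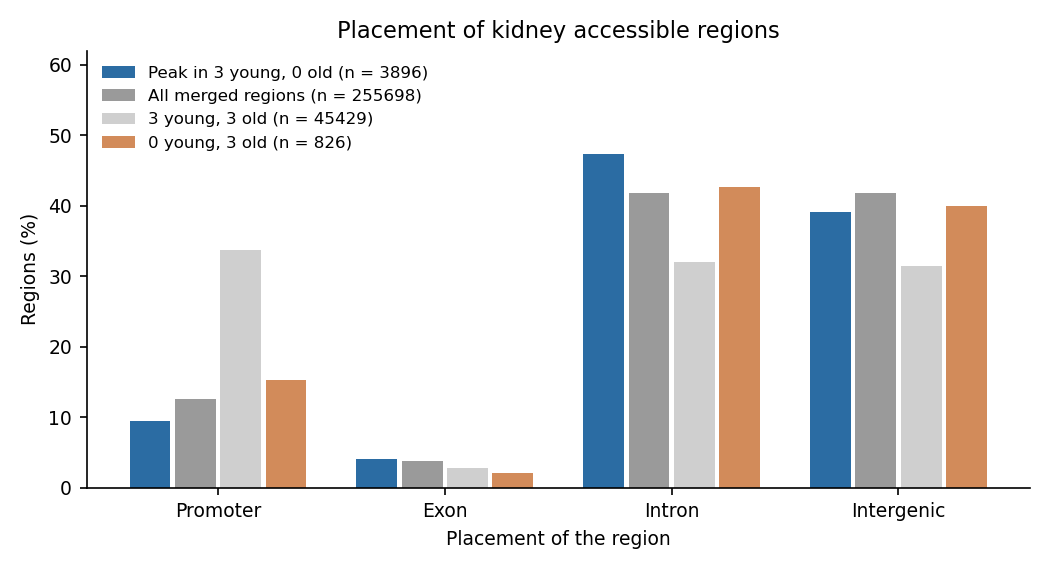
Share of regions (y axis, %) by placement (x axis) for the members, all merged kidney regions, regions open in all 6 libraries and old-only regions; bars carry no error because each set is counted once. Members have 9.47% promoters against 33.8% in the regions open in all 6 libraries, and 47.4% against 32% introns.

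Members were scattered over the genome. Their share of the kidney regions of a chromosome ran from 1.25% on chromosome 15 to 2.11% on chromosome 19 among the autosomes. It was 1.42% on chromosome X, and 1 of the 19 regions on chromosome Y was a member. Only 235 members (6.03%) lay within 10 kb of another member. The median distance to the nearest transcription start was 16.2 kb, against 6.86 kb for regions open in all 6 libraries, and 498 members (12.8%) were more than 100 kb from any start.

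Base composition and motifs were measured in these windows around the summit, which the rule did not use. The mean GC content of member windows was 49.9%, close to 49.4% for all kidney regions and below 54.8% for regions open in all 6 libraries. Members held 2.89 CpG dinucleotides per window on average, against 3.21 and 7.13 in those sets. An average of 11.3% of a member window was marked as repeat, against 17.2% for all regions. Shares of windows with a motif are given below for members and for all regions, counted on both strands. Of all regions, 30.3% had a peak in 1 young library alone and 22.7% in 1 old library alone.

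The HNF4 motif was more frequent among members than among all regions. Its letters CAAAGTCCA lay in 1.54% of member windows (60 windows), against 0.838% of all regions, 1.33% of regions open in all 6 libraries and 0.121% of old-only regions. Outside promoters the shares were 1.67% of members and 0.87% of all regions. The regions with 3 young peaks and 1 old peak had a like share, 1.61%, so it was not particular to the complete absence of old peaks.

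The core motif AGGTCA, shared by many nuclear receptors, lay in 19.4% of members against 16.5% of all regions, and the ERR motif TCAAGGTCA, which contains it, in 0.873% against 0.584%. Regions with 3 young peaks had AGGTCA in 20.1% with 1 old peak and in 20.9% with 2. Those with 2 young and 0 old peaks had it in 19.7%, so its share was not particular to members. The CTCF motif, which spells CCA, AG and GGGC with 2 bases and 1 base between them, lay in 3.77% of members (147 windows), above the 2.29% of all regions and below the 4.57% of regions open in all 6 libraries. Old-only regions had 0.484%. Members were also below the regions with 3 young peaks and 1 or 2 old peaks, at 5.1% and 5.14%. Regions with 2 young and 0 old peaks had the CTCF motif in 2.83%. Members above the median fold enrichment had it in 4.93% of windows and the others in 2.62%.

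The AP-1 motif TGANTCA lay in 6.6% of members, below 7.86% of all regions, and in 18.8% of old-only regions. The PU.1 motif GAGGAAGT lay in 1.57% of members, against 2.61% of all regions and 11.3% of old-only regions. Regions with 3 young peaks and 1 old peak had 7.03% for AP-1 and 1.94% for PU.1. The ETS motif CCGGAAGT lay in 0.308% of members against 0.612%, and the GC box GGGCGGG in 3.08% against 4.66%; outside promoters these became 0.312% against 0.281% and 2.5% against 2.05%, so that the lower shares of both turned around there. The FOX motif TGTTTAC was at 3.47% against 3%, and CRE, TGACGTCA, at 0.128% against 0.331%. The DR1 element of PPAR and RXR, a pair of core motifs 1 base apart, lay in 1 member. For the motifs of NFI, the glucocorticoid receptor, TEAD (ACATTCC), E-box (CACGTG), D-box (TTATGTAA), TFAP2 (GCCNNNGGC), the GATA family (spelt AGATAAG) and the CCAAT box the ratio of the members' share to that of all regions was between 0.875 and 1.1.

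**Figure D3:**
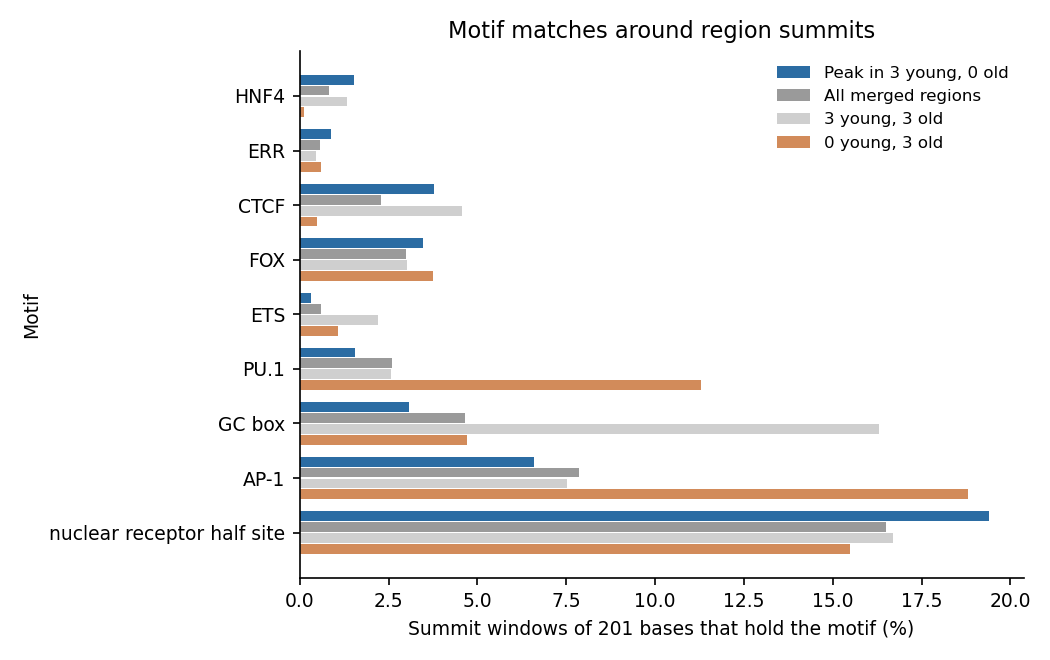
Share of summit windows (x axis, %) that hold each motif (y axis) on either strand, for members, all merged regions, regions open in all 6 libraries and old-only regions. Members have more HNF4 and AGGTCA matches than all regions and fewer AP-1 and PU.1 matches, and old-only regions reach 18.8% for AP-1 and 11.3% for PU.1.

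The strongest carriers of HNF4 and CTCF motifs show what these motifs look like in place. The highest member with an HNF4 motif, chr3:28642942-28643294 in an intron of Tnik, had fold enrichments of 4.99, 4.58 and 5.05 and no liver peak. The highest with a CTCF motif, chr9:59269728-59270136, lay 21.4 kb from the start of Adpgk, had 7.77, 6.51 and 4.1, and carried a peak in 2 young and 2 old liver libraries.

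Liver ATAC-seq gave a readout of the same regions that the rule did not use. A liver peak overlapped 26.7%, 28.1% and 28.2% of members in the 3 young liver libraries and 23.8%, 20.9% and 21.9% in the 3 old ones. Every young liver library was above every old one. The means were 27.7% ± 0.876 (SD, n = 3) and 22.2% ± 1.5 (SD, n = 3), a difference of −5.48 percentage points from young to old. An exact two-sided permutation test gave p = 0.1, the smallest that 3 against 3 libraries allow, so this design cannot pass 0.05. Over all kidney regions the liver libraries did not separate by age, with 26.1% ± 0.247 in young and 26% ± 1.84 in old (difference −0.0416, exact permutation p = 1), and over regions open in all 6 kidney libraries the difference was −1.39 points (exact permutation p = 0.2).

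The share of members minus that of all other kidney regions, taken within each liver library, was 0.863, 2.03 and 1.96 points in young and −3.95, −3.24 and −4.51 points in old liver, again without overlap (exact two-sided permutation p = 0.1). The difference between ages was −4.24 points among regions with 3 young and 1 old kidney peaks and −2.64 points among those with 2 young and 0 old. When each liver library was cut to as many top peaks as the smallest held, the members' means were 26.2% ± 0.745 and 21% ± 0.417. Most members were open in few liver libraries: 1988 (51%) had no liver peak at all, near the 53% of all kidney regions, 242 (6.21%) had one in all 6, against 12.5% of all kidney regions, and 57 (1.46%) repeated the pattern of 3 young and 0 old libraries in liver, against 0.608% of all kidney regions. The reverse pattern in liver was held by 18 members (0.462%), against 0.479%. Regions with 3 young kidney peaks had no liver peak in 40.9% with 1 old kidney peak and in 33.6% with 2. Those with 2 young and 0 old kidney peaks had none in 56.7%. Among the 147 members with a CTCF motif 78.9% had a peak in at least 1 young liver library, near the 78.5% of all kidney regions with that motif; over all members the share was 41%. Of the 60 members with an HNF4 motif 31.7% had one, against 43.8% of all kidney regions with it.

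**Figure D4:**
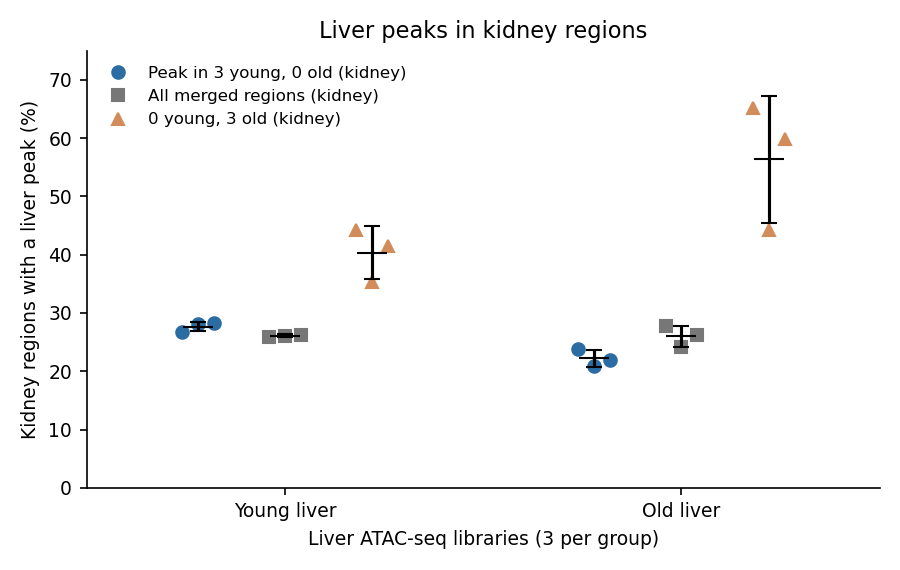
Share of kidney regions (y axis, %) that a liver peak overlaps in each young and old liver ATAC-seq library (x axis); each symbol is 1 library, and bars show the mean ± SD of 3. The members fall from 26.7 to 28.2% in young to 20.9 to 23.8% in old liver, all merged kidney regions stay between 24.1 and 27.7%, and old-only kidney regions lie higher.

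The RNA of the genes at these regions was compared between old and young kidney with edgeR's quasi-likelihood test over 14495 genes. A gene was called when its Benjamini-Hochberg adjusted p was under 0.05 and it changed by more than 2-fold. The labels do not say that the libraries came from separate animals, so the p-values measure the spread between these libraries. Any annotated start counted for a promoter member, also one inside the gene, as at Ect2, Stab2, Cd2, Alox5, AW112010, Gadd45b and Egf. The 369 promoter members lay at 376 genes, of which 279 passed the count filter. Of these, 4 were called lower (1.43%, against 0.407% of all genes tested) and 7 higher (2.51%, against 5.68%). By adjusted p alone 21 were lower (7.53%, against 3.36%) and 10 higher (3.58%, against 8.15%). The median log2 fold change was −0.048 against 0.021 for all genes, and 55.9% of the promoter genes were below 0 against 47.8%. Most genes with a promoter member thus did not pass the test in either direction.

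Akr1c14 (chr13:4049011-4090688), a hydroxysteroid dehydrogenase, had the largest drop among the promoter genes called lower and had 2 members at annotated starts. Its levels were 128.4, 149.8, 234.2 and 136.5 CPM in young and 69.5, 26.5, 13.9 and 20.9 CPM in old kidney. The groups did not overlap, and the log2 fold change was −2.32 (SE 0.452, edgeR adjusted p = 0.0103). The 2 regions had mean fold enrichments of 2.88 ± 0.171 and 2.58 ± 0.559 (SD, n = 3), and the upstream one had a peak in all 6 liver libraries. The Akr1c genes are near copies of each other, so reads could be shared among them.

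Ect2 (chr3:27097222-27153878), a guanine nucleotide exchange factor for cell division, had a promoter member that was among the 152 with a mean fold enrichment above 5. It reached 4.81, 7.57 and 6.78 and lay 0.446 kb from an internal start. Its RNA was 9.8, 14.4, 18.3 and 10 CPM in young and 4.62, 8.48, 3.6 and 5.57 CPM in old kidney, with every old value below every young one (log2 fold change −1.23, SE 0.298, edgeR adjusted p = 0.0266). Nynrin fell from 18.7 ± 2.73 to 9.24 ± 3.26 CPM (SD, n = 4 each) and Stab2, a scavenger receptor of sinusoidal endothelium, from 19.5 ± 5.22 to 9.32 ± 2.91 CPM, also without overlap (edgeR adjusted p = 0.027 and 0.0304). Akr1c14 remained called under all 12 alternatives of the fit. The other 3 were lost when single libraries were left out: Ect2 without old replicate 1 or 4 or young replicate 2 or 3, Nynrin without old replicate 1 or 3 or young replicate 1, 2 or 3, and Stab2 without old replicate 1 or 4 or young replicate 1 or 2, at adjusted p of 0.0498 to 0.102. The 0.0498 was that of Nynrin without old replicate 3, where the call was lost by the 2-fold limit, at a log2 fold change of −0.88.

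RNA of 7 promoter genes was called higher in old kidney. AW112010, an inflammation-linked long noncoding RNA, rose from 6.3 ± 0.941 to 17.5 ± 3.21 CPM, and Fbln1, the matrix protein fibulin 1, from 14 ± 1.33 to 35.8 ± 10.5 CPM (log2 fold changes 1.47 and 1.36, edgeR adjusted p = 0.00153 and 0.00322). Cd2, an adhesion molecule of T and NK cells, rose from 0.493 ± 0.384 to 4.73 ± 2.2 CPM, Alox5, the lipoxygenase of leukotriene synthesis in leukocytes, from 0.455 ± 0.252 to 2.7 ± 1.36 CPM, and Gadd45b, a stress response gene, from 7.07 ± 2.25 to 16.3 ± 2.44 CPM. All 10 T and NK cell markers that passed the filter were above 0 in log2 fold change and 8 were called higher, beside the rise of Cd2; their part in it was not tested. The 5 genes kept their call under all 12 alternatives.

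Fabp1, the liver fatty acid binding protein, and Agmat, agmatinase, were the other 2. Fabp1 was at 3.67, 2.97, 5.37 and 7.13 CPM in young and at 9.95, 57.2, 13.4 and 16.7 CPM in old kidney, where replicate 2, the library with 4692 CPM of hepatocyte markers, stood highest. Agmat was at 2.4, 1.84, 2.58 and 5.27 CPM in young and 9.85, 9.75, 12 and 4.43 CPM in old kidney, so its groups overlapped. Without old replicate 2 both genes kept the call, and the log2 fold change of Fabp1 went from 2.36 to 1.5. Fabp1 lost it without young replicate 1, 2 or 3 and Agmat without old replicate 1 or 3 or young replicate 1, 2 or 3, at adjusted p of 0.0616 to 0.0891.

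Within 50 kb, 2944 members had a nearest transcription start, belonging to 2531 genes of which 1925 were tested. The RNA of these genes was shifted down as a group: the median log2 fold change was −0.108 against 0.021 over all genes, and 61.6% were below 0 against 47.8%. By adjusted p alone 118 were lower (6.13%, against 3.36% of all genes) and 102 higher (5.3%, against 8.15%). By the call with the 2-fold limit 13 were lower (0.675%, against 0.407%) and 63 higher (3.27%, against 5.68%). The difference from the median of all genes was −0.129 and ran from −0.192 to −0.088 when single libraries were left out. Without old replicate 2, the library highest in hepatocyte markers, 69 nearest genes (3.58%, against 2.32% of all genes in that fit) and 8 promoter genes were called lower. In that fit 414 nearest genes (21.5%, against 12.2% of all genes) were lower by adjusted p alone. By adjusted p alone 26 were lower without young replicate 2 (1.34%, against 0.943%). Without old replicate 4 that number was 29 (1.51%, against 0.985%). By the 2-fold rule, 3 nearest genes (0.155%, against 0.239%) and 1 promoter gene were called lower without young replicate 2. The share of nearest genes called lower by the 2-fold rule was also below that of all genes without old replicate 1 (0.308% against 0.334%) or old replicate 3 (0.465% against 0.486%), so by this rule its excess over all genes was not kept.

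The median shift went with the number of members nearest to a gene. The 12570 tested genes without a member had a median log2 fold change of 0.044, the 1618 with 1 member −0.088, the 251 with 2 members −0.19 and the 56 with 3 or more −0.22. The share lower by adjusted p was 2.94%, 5.25%, 9.96% and 14.3% in that order, and the share higher was 8.59%, 5.69%, 3.59% and 1.79%. The share below 0 was 45.7%, 59.1%, 76.5% and 67.9%, so it did not rise further with 3 or more members. Genes with more members were also nearest to more kidney regions of any kind, with medians of 5, 13, 24 and 44.5 regions. Among genes nearest to 20 or more kidney regions, those with a member had a median of −0.217 and 9.08% lower, and those without had −0.144 and 5.88%; among genes with 10 to 19 regions the medians were −0.087 and −0.054, and with 1 to 4 regions they were 0.091 and 0.108. Genes near the regions with 2 young and 0 old peaks had a median of −0.1, and genes near old-only regions 0.061.

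**Figure D5:**
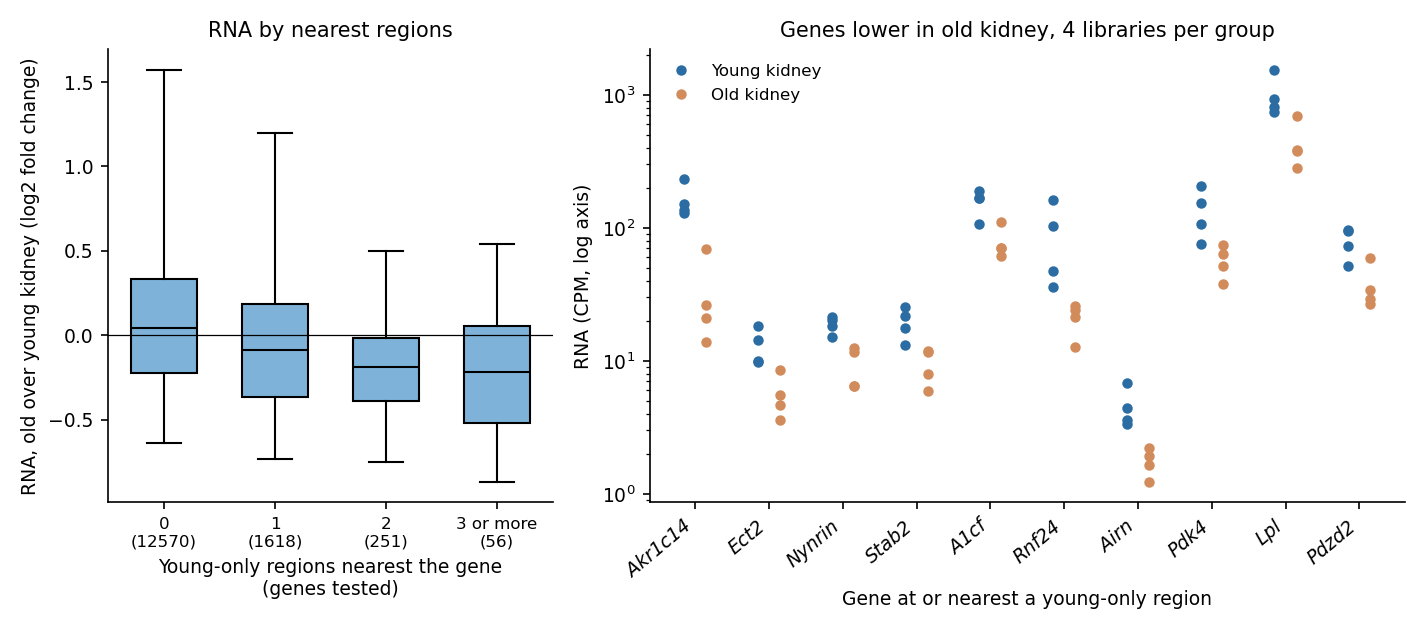
Left, log2 fold change of RNA in old over young kidney (y axis) for genes by the number of members nearest to them (x axis); boxes show quartiles and median and whiskers the 5th and 95th percentiles over genes, and the medians step from 0.044 to −0.088, −0.19 and −0.22. Right, CPM (log axis) of the promoter and nearest genes called lower, 1 point per library, with young and old libraries side by side.

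The 6 nearest genes called lower with the smallest p, promoter genes left out, are given next. Rnf24, a ubiquitin ligase family gene with a member in its untranslated region (chr2:131300460-131301286), was at 47.2, 103.3, 162.4 and 35.9 CPM in young and at 26, 21.2, 12.6 and 24.3 CPM in old kidney. The young libraries spread widely but all stood above the old ones (log2 fold change −2.05, SE 0.446, edgeR adjusted p = 0.017). Pdk4, the kinase that blocks pyruvate oxidation, was at 153.6, 75, 206 and 106.2 CPM in young and at 74, 63.4, 37.9 and 51.7 CPM in old kidney, with a narrow gap between the groups (−1.25, SE 0.305, edgeR adjusted p = 0.0271). Its member, chr6:5481671-5482902, lay 13.4 kb from its start with a mean fold enrichment of 3.04 and 2 AGGTCA matches in its window, 89.6% of which was marked as repeat.

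Lpl, lipoprotein lipase, was at 745, 935.2, 1540 and 813.8 CPM in young and at 695.5, 279.8, 374.8 and 382.1 CPM in old kidney (−1.22, SE 0.308, edgeR adjusted p = 0.0312). Its member, 23.3 kb upstream, had peaks in 2 young and no old liver libraries. Every old kidney value was below every young one. In liver the gene moved the other way, at a log2 fold change of 1.31 (edgeR adjusted p = 0.0251). Pdzd2, a scaffold with PDZ domains, had 3 members in its introns, one of them with the HNF4 motif printed above; it was at 95.9, 94, 72.8 and 51.4 CPM in young and at 29.3, 59.5, 26.6 and 33.9 CPM in old kidney, where the groups overlapped (−1.07, SE 0.277, edgeR adjusted p = 0.0343). A1cf, the cofactor of APOBEC1, fell from 158.3 ± 35.9 to 78.3 ± 22.4 CPM and Airn, the antisense RNA of the imprinted Igf2r locus, from 4.55 ± 1.55 to 1.76 ± 0.421 CPM (edgeR adjusted p = 0.017 and 0.0177). Counting ignored strand, so Airn reads cannot be told from those of Igf2r where the genes overlap.

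These 6 calls were sensitive to single libraries. Rnf24 and Airn lost the call without young replicate 2, and Airn also without old replicate 4. Pdk4 lost it without old replicate 3 or 4 or young replicate 1 or 3, and Lpl without old replicate 3 or 4 or young replicate 2 or 3. A1cf and Pdzd2 lost it without old replicate 1, 3 or 4 or young replicate 1, 2 or 3. The adjusted p of the lost calls ran from 0.0363 to 0.104, and the log2 fold change of each gene stayed below 0 throughout, from −2.31 for Rnf24 to −0.92 for A1cf. Without old replicate 1 or 3 or young replicate 1, A1cf kept an adjusted p under 0.05 and lost the call by the 2-fold limit.

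The 6 nearest genes called higher with the smallest p included genes of immune cells. H2-Eb1, an MHC class II chain, rose from 98.9 ± 17.4 to 424.2 ± 50.4 CPM, the chemokine Cxcl13 from 0.202 ± 0.202 to 13.1 ± 8.09 CPM, and Tyrobp, a signalling adaptor of myeloid and NK cells, from 7.37 ± 1.31 to 35.9 ± 14.4 CPM. Snx20 and the adhesion molecule Icam1 rose with log2 fold changes of 2.61 and 1.35. Cyp2d12, a cytochrome P450, was at 37.9 to 50.2 CPM in young and at 223.6 to 362.2 CPM in old kidney (2.7, SE 0.186, edgeR adjusted p = 0.000173); its member, chr15:82532730-82533204, had a mean fold enrichment of 6.02 ± 2.14, and 94.5% of its window was marked as repeat. All 6 kept the call under the 12 alternatives, and their rise stood beside that of the macrophage markers given above and of the B and plasma cell markers, of which 8 of 10 tested were called higher and all 10 were above 0. The summed level of the latter was 166.5 to 219.4 CPM in young and 595.6 to 757.9 CPM in old kidney. The part of either cell type in these values was not tested. Cyp2d and MHC class II genes have near copies that can share reads.

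No gene had more than 4 members nearest, and 348 genes had 2 or more. The 7 genes with 4 members were Elf5, Mapk9, Nav2, Pde4d, Prdm16, Sh3pxd2a and Vps53. Elf5, an ETS factor of the collecting duct, had 3 of its 4 at annotated starts, with mean fold enrichments of 2.94, 2.7, 4.42 and 4.34. Its RNA was 6.39, 2.07, 2.29 and 3.23 CPM in young and 6.45, 6.82, 6.49 and 8.92 CPM in old kidney; the groups were parted by a narrow gap, and the change did not pass the test (1.04, SE 0.344, edgeR adjusted p = 0.0806). It passed in 2 of 12 alternatives, with DESeq2 and without young replicate 1, where the log2 fold change was 1.5. For Prdm16, a factor with 4 members within and beside its long gene body, the log2 fold change was −0.38 (SE 0.271), and for Mapk9, the kinase JNK2, −0.31 (SE 0.131). The other 4 were between −0.41 and 0.1, and none of the 7 passed an adjusted p of 0.05.

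Gene lists were read against the 13.3% of tested kidney genes that had a member at the promoter or nearest. These lists were compiled with earlier results of these data known. Nephron transcription factors had members at 11 of 35 tested genes (31.4%), insulin, IGF and growth hormone signalling genes at 8 of 25 (32%), clock genes at 6 of 19 (31.6%), cytochrome P450 and conjugation genes at 7 of 27 (25.9%) and WNT, BMP and TGF-beta signalling genes at 9 of 39 (23.1%). The share was 17.4% for both proximal tubule markers (4 of 23) and genes of amino acid and organic acid breakdown (4 of 23), and 16.7% for gluconeogenesis and fatty acid oxidation (4 of 24). It was 5.26% for markers of the loop of Henle and distal nephron (1 of 19) and 6.25% for macrophage markers (1 of 16). The lists of podocytes, endothelium, fibroblasts, collecting duct, hepatocytes and B, T and NK cells had 1 or 2 genes with a member each. Genes nearest to more kidney regions had a member more often. With 20 or more regions, 705 tested genes had a member nearest and 1123 had none. With 1 to 4 regions, 174 had one and 4925 had none. The shares of the lists were not adjusted for this, and no test of them was made.

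Among the 11 nephron factors with a member, 6 were below 0 in log2 fold change and 3 were lower by adjusted p, with none higher, where 47.8% of all tested genes were below 0, 3.36% lower and 8.15% higher. Over the whole list 9 of 35 were lower and 1 was higher by adjusted p, and its median of −0.18 was below the −0.09 of the genes with a member. Esrrg, the estrogen-related receptor gamma of oxidative metabolism, had 2 intronic members and went from 83.1 ± 18.3 to 47.5 ± 11.6 CPM (−0.81, SE 0.205, edgeR adjusted p = 0.0323). Sim1 went from 28.6 ± 5.52 to 16.6 ± 4.34 CPM and Maf from 266.6 ± 16.7 to 207.6 ± 13.4 CPM (edgeR adjusted p = 0.0398 and 0.0432). Pax2, Cux1, Esrrb, Ppard, Rxra, Pou3f3, Emx1 and Zhx3 also had members but did not pass. None of these changes reached 2-fold. The adjusted p of Esrrg stayed under 0.05 in 6 of 12 alternatives, that of Sim1 in 5 and that of Maf in 4, and each lost it without old replicate 1, 3 or 4 or young replicate 1, 2 or 3.

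Transport and metabolism genes with a member were read by adjusted p. Here 0 of 4 proximal tubule markers and 0 of 4 genes of amino acid and organic acid breakdown were lower. So were 1 of 4 genes of gluconeogenesis and fatty acid oxidation and 1 of 7 of the cytochrome P450 and conjugation list. None was higher. Of all tested genes 3.36% were lower and 8.15% higher. In that order of lists, 6 of 23, 7 of 23, 7 of 24 and 5 of 27 genes were lower over the whole lists. Of the last list 3 were higher, and of the others none. Among the genes with a member, Kap, Pdzk1, Slc22a8, Slc7a13, Dmgdh, Acsm1 and G6pc did not pass. Egf, the growth factor made by the distal nephron, had 3 members, one of them 0.74 kb from an internal start. Its levels were 3058, 2962, 2602 and 2847 CPM in young and 1867, 1827, 1397 and 1634 CPM in old kidney, with a wide gap between the groups (−0.77, SE 0.128, edgeR adjusted p = 0.00483), and it held an adjusted p under 0.05 under all 12 alternatives. The 3 regions were among the weaker members, with mean fold enrichments of 1.98, 1.78 and 2.42. Pcx, pyruvate carboxylase of gluconeogenesis, was at 616.2, 609.3, 719.4 and 671.6 CPM in young and at 446.7, 421.9, 439.3 and 390 CPM in old kidney (−0.62, SE 0.105, edgeR adjusted p = 0.00523) and likewise held under all 12. The chloride and iodide exchanger Slc26a4 of intercalated cells (−0.46) and the carboxylesterase Ces1d (−0.83, with 2 members) were lower at edgeR adjusted p of 0.0191 and 0.0266. Slc26a4 stayed under 0.05 in 8 of 12 alternatives and lost it without old replicate 4 or young replicate 1 or 2, and Ces1d in 9, losing it without old replicate 1 or 4 or young replicate 2. Cpt1a, which carries fatty acids into mitochondria, was at −0.54 and did not pass (edgeR adjusted p = 0.0592), though it did with DESeq2, with other size factors and without old replicate 2.

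Of the WNT, BMP and TGF-beta signalling genes with a member, 2 of 9 were lower by adjusted p. Of the insulin, IGF and growth hormone list 1 of 8 was lower, and in neither list was one with a member higher. The whole first list had 3 of 39 lower and 3 higher, and the second 4 of 25 lower and 2 higher. Of all tested genes 3.36% were lower and 8.15% higher. Smad5, Id3, Foxo1, Igf1r and Pik3r1 were among the genes with a member that did not pass. Id2, a target of BMP signalling, was lower at −0.56, Lgr4, a receptor that strengthens WNT signalling and had 3 members, at −0.59, and Prlr, the prolactin receptor, at −0.78 (edgeR adjusted p = 0.0233, 0.0467 and 0.039). An adjusted p under 0.05 was kept in 8 of 12 alternatives by Id2, which lost it without old replicate 4 or young replicate 1, 2 or 3, in 8 by Prlr, which lost it without old replicate 1 or young replicate 1, 2 or 3, and in 5 by Lgr4, which lost it without old replicate 1, 3 or 4 or young replicate 1, 2 or 3. Clock genes with a member, among them Nr1d1, Nr1d2, Bhlhe40 and Rora, gave no gene that passed; Nr1d2 was at −0.89 (SE 0.299, edgeR adjusted p = 0.0839) and passed in 2 of 12 alternatives, with DESeq2 and without old replicate 2. Of the AP-1 and ETS list, which does not hold Elf5, Jun and Ets2 had a member, at 0.42 and −0.02, and neither passed the test, though Jun had an adjusted p under 0.05 in 3 of 12 alternatives. Of the endothelial markers 1 of 14 was higher by adjusted p, and of the pair with a member Sox18 did not pass. The other, Eng, was higher at 0.52 (edgeR adjusted p = 0.034, under 0.05 in 7 of 12 alternatives and lost without old replicate 1 or 4 or young replicate 1, 2 or 3). Trf, made mostly by hepatocytes, was at 202.7, 714.4, 219.2 and 168 CPM in old kidney against 103.2 to 119.6 CPM in young, and Pax5, the B cell marker with a member, was at 0.22 ± 0.213 and 1.37 ± 1.07 CPM and did not pass, though it did in 3 of 12 alternatives. The call of Trf (1.55, edgeR adjusted p = 0.0396) fell under 2-fold, at 0.82, without old replicate 2, and was also lost without each young replicate. Solute carrier genes had members at 46 of 303 tested genes (15.2%), near the 13.3% of all tested genes. Of the 46, 33 were below 0, 9 were lower by adjusted p and 1 higher. All tested genes had 47.8% below 0, 3.36% lower and 8.15% higher, and all genes nearest to a member 61.6%, 6.13% and 5.3%. Solute carriers without a member were not counted apart, so a difference from them was not tested.

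The same genes were read in the other RNA comparisons. Between young kidney and young liver, of 275 promoter genes 92 were called higher in kidney (33.5%, against 25.7% of 14057 genes) and 52 higher in liver (18.9%, against 16.9%), and of 1874 nearest genes 616 were higher in kidney (32.9%) and 284 in liver (15.2%). Young kidney libraries also served the age comparison, so the 2 are not independent. Among genes called higher in kidney than liver, the 616 nearest to a member had a median age change of −0.19 with 11.2% lower, and the 3002 others had −0.012 with 5.3% lower. Genes without a tissue call showed medians of −0.122 and 0.001. Genes called higher in liver had a median of 0.052 with a member (257 genes, 6.61% lower and 12.8% higher) and 0.246 without, and genes not tested between tissues had 0.97 with a member (79 genes) and 0.798 without, so the medians of these groups were above 0.

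Between old and young liver, 236 promoter genes were tested, of which 1 was called lower (0.424%, against 0.439% of 12537 genes) and 2 higher (0.847%, against 1.69%); the median was 0.017 against 0.003. The median of the 1671 nearest genes was −0.001. The RNA of these genes thus did not show in liver the downward median seen in kidney, though the difference between the tissues was not tested. Between old kidneys given 3C and DMSO, edgeR and DESeq2 called 0 of 290 promoter genes, as edgeR called 0.0% of the 14974 genes, and 44 promoter genes had an unadjusted p under 0.05, as did 1786 of all 14974 genes.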

How the data were processed

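ATAC-seq peaks and RNA-seq counts were analysed for the young and old kidney and liver groups and for kidneys given DMSO or 3C; the fibroblast and 3C liver RNA libraries were not used here. The authors aligned ATAC-seq reads with Bowtie2 2.3.5.1, removed duplicates and called peaks per library with MACS2, and the deposited peak files give a fold enrichment over local background and the −log10 p and −log10 q of each peak. RNA-seq files as deposited hold read counts per gene, which the authors obtained with HTSeq 0.12.4, ignoring strand, from HISAT2 2.2.1 alignments of reads trimmed by Trimmomatic 0.39. Depth of the ATAC-seq libraries is not given by the peak files, so a missing peak says only that none was called.

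Peaks of the 6 kidney libraries sharing at least 1 bp were merged, an interval with several summits being taken once at its highest. Genes and starts came from GENCODE vM21 on GRCm38, where 24534 of 24984 gene symbols matched. A promoter had a start within 1000 bp of the region, and the nearest gene had the nearest start within 50 kb. Motifs were searched in 100 bases either side of the summit. Counts were tested with edgeR 4.0.16 in R 4.3.3 (TMM, quasi-likelihood, filterByExpr with a minimum count of 10), and adjusted p-values were computed over all genes tested. Liver peak shares were compared with the exact two-sided permutation test (scipy 1.17.1 under Python 3.11.15). Alternatives were DESeq2 1.42.0, other size factors, no count filter, a replicate block, leaving out each library, and stricter peaks or overlap. The edgeR step was tested on simulated counts.

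Named were the 8 members with the highest mean fold enrichment, the promoter genes called in either direction (at most 10 each), the 6 other nearest genes called lower and the 6 called higher with the smallest p, the 5 genes with the most members nearest, of which 7 were tied, and up to 4 genes with a member from each list. The members and the lists were chosen with earlier results of these data known. In the comparison of young kidney with young liver, the deviations of same-numbered libraries had correlations of 0.12, 0.219, 0.104 and 0.452. In the age comparison of liver such correlations ran from −0.31 to 0.334. The labels do not state a pairing. The values given for young kidney against young liver come from the fit without pairing, and the replicate block was an alternative.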

Additional observations from a re-analysis of the deposited data

Results flagged for a closer look

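Among 96 groups of 4 kidney libraries, from 48 genes, 5 held a library far from the other 3, and chance gives about 1 in 20. In old kidney replicate 2 Fabp1 was at 57.2 CPM against 9.95 to 16.7 CPM in the others, and Trf at 714.4 CPM against 168 to 219.2 CPM; the summed hepatocyte markers of this library were 4692 CPM against 380 to 495.5 CPM, and their part in these values was not tested. H2-Eb1 was at 124.6 CPM in young replicate 4 against 88.3 to 94.3 CPM, Ces1d at 589.8 CPM in the same library against 395.3 to 420.5 CPM, and Elf5 at 8.92 CPM in old replicate 4 against 6.45 to 6.82 CPM.

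Lpl moved in opposite directions in the 2 tissues, with no overlap between ages in either. Its log2 fold change from young to old was 1.31 in liver, where it was at 11.2, 13.5, 8.02 and 12.9 CPM in young and 23.5, 37.4, 33.4 and 18.8 CPM in old libraries, and −1.22 in kidney. The difference between the tissues was not tested.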

How the results depend on the processing

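With as many top peaks per library as the smallest held, 2514 regions had the pattern, and 57.2% of the members overlapped one of them. With −log10 q of at least 5 there were 2806 regions, but only 467 members (12%) were among them, and with peaks covering at least 50% of the region 4640. Leaving out 1 library gave 5990 to 8432, since fewer libraries were then required. The promoter share was 11% with 50% cover and 8.26% by distance from the summit.

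Promoter genes called in kidney were 13 higher with DESeq2, 21 lower by adjusted p alone, 1 lower with the members of −log10 q of at least 5 and 4 higher with those of top peaks; without 1 library they were 1 to 8 lower and 5 to 7 higher. Nearest genes were 118 lower and 102 higher by adjusted p alone, and 3 (without young replicate 2) to 69 (without old replicate 2) lower and 40 to 66 higher without 1 library. Promoter genes in liver were 3 lower and 11 higher with DESeq2, 5 higher without the count filter, and 0 to 2 lower and 0 to 9 higher without 1 library. Promoter genes higher in liver than kidney were 81 by adjusted p alone. Nearest genes lower by adjusted p alone were 26 to 414 without 1 library and 306 with DESeq2, and their median stayed below that of all genes in all these fits. The cause of these changes was not tested.

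With the replicate number as a block, nearest genes called in kidney were 6 lower (0.312%, against 0.352% of all genes) and 52 higher and promoter genes 3 lower and 6 higher; promoter genes were 1 lower and 2 higher in liver, 0 with 3C, and 52 higher in liver and 95 higher in kidney between tissues. In kidney the block took the edgeR adjusted p of Nynrin to 0.0641, Fabp1 to 0.0637, Agmat to 0.0856, Rnf24 to 0.077, Airn to 0.0573, Pdk4 to 0.0725, Lpl to 0.0563 and Trf to 0.0821, and that of Slc26a4, Sim1, Maf and Lgr4 also above 0.05. Same-numbered libraries did not deviate together in kidney (−0.28 to 0.285), liver (−0.31 to 0.334) or with 3C (−0.0822 to 0.0175), so only the number is shared there. The peak files give no depth, so its part in the missing peaks was not tested; 42.9% of members had a −log10 q under 2 in at least 1 young library.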

Other observations

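Regions with peaks in old kidney alone were read in the same way. A liver peak overlapped 40.4% ± 4.53 of them in young and 56.4% ± 10.9 in old liver libraries (SD over 3 libraries per age, p = 0.2 by the exact permutation test, two-sided), and 35 of the 110 tested genes with an old-only region at the promoter were called higher in old kidney (31.8%, against 5.68% of all genes). By the start of their symbols, 14 gene families were counted, against 13.3% of all tested genes with a member and 47.8% below 0 in log2 fold change, 3.36% lower and 8.15% higher by edgeR adjusted p. Col genes had members at 7 of 31 (22.6%, 4 below 0), Abc genes at 7 of 38 (18.4%, 5 below 0 and 3 lower by edgeR adjusted p), Cxc genes at 2 of 11 (18.2%, both higher by adjusted p), Cyp genes at 8 of 47 (17%, 4 below 0), Il genes at 6 of 41 (14.6%, 1 below 0 and 2 higher), Rab genes at 7 of 66 (10.6%, 2 below 0 and 2 higher), H2- genes at 2 of 23 (8.7%, 1 higher) and Zfp genes at 28 of 349 (8.02%, 20 below 0). No test of these counts or of differences between families was made, and they were not adjusted for the number of kidney regions near a gene.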
